A study of Homo sapiens with 2 samples.

Results

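Of 33349 peaks of H4R3me2a in HCT116 cells on chromosomes 1 to 22 and X, 4288 (12.9%, 95% exact interval 12.5 to 13.2%) lay in 806 dense local chains of 4 or more peaks. The chains were selected on measured peak positions alone: peaks were sorted by start, neighbours with a gap of 2000 bp or less were joined, and every peak of a chain of at least 4 was kept. Together the chains spanned 3.87 Mb, which is 0.133% of the sequence other than N, and held 1107 peaks per Mb against 11.5 per Mb over the genome. Because the positions chose the members, that density is a description and supports nothing further. HCT116 is an established human colorectal carcinoma line. The cells had no drug treatment, and 1 library of chromatin immunoprecipitated with an antibody against H4R3me2a was compared with 1 matched library of input DNA. Without replicates no test was made, and all intervals reflect counting error alone. Intervals and upper limits over peaks treat each peak as independent. Peaks of a chain are neighbours by the rule, so these intervals are likely too narrow. Read totals of the libraries are not given in the sources used, and depth is seen only through the pileup, the number of fragments stacked at a peak's summit.

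H4R3me2a is asymmetric dimethylation of arginine 3 on histone H4. It is written mainly by the arginine methyltransferase PRMT1 and is known as a mark associated with active transcription. A peak caller cuts the genome into separate intervals wherever the signal passes its threshold, and neighbouring intervals can lie close together. A chain here is a row of such intervals, and the signal in its gaps was not analysed here. HCT116 cells are near-diploid and are known to carry extra copies of some chromosome parts, which include parts of the long arms of chromosomes 8, 10 and 17. DNA copy number was not available as data here, for these or for other chromosomes.

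The sequences under 4 chains are given as examples at the base level. They come from chains at the extremes of the list and do not stand for all members. Each is the 300 bp of the GRCh38 reference, + strand, centred on a summit, with every CpG dinucleotide in capitals. PIEZO1 and UNC13D lead chains that are among the 3 with the most peaks, where the longer span took precedence between chains of equal number. The chain in CRTC1 has the largest share of its span under peaks, and the chain at the long non-coding RNA gene RENO1 has the most peaks away from protein-coding genes. The windows are chr16:88744353-88744652 (intron of PIEZO1), chr17:75830980-75831279 (UNC13D, near an internal start site), chr19:18761231-18761530 (intron of CRTC1) and chr17:81330880-81331179 (intergenic, beside RENO1). Each window belongs to the peak with the highest fold of its chain.

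PIEZO1: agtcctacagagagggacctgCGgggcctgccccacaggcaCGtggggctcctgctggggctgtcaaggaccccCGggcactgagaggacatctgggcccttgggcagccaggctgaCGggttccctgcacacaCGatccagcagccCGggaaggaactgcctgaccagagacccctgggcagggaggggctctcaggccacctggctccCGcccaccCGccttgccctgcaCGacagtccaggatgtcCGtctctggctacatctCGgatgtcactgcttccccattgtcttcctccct
UNC13D: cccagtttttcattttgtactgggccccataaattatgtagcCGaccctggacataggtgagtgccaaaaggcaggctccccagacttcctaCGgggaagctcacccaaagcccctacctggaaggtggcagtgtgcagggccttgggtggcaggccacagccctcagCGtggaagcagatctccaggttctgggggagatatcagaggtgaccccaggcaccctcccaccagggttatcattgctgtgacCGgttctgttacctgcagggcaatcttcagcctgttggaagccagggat
CRTC1: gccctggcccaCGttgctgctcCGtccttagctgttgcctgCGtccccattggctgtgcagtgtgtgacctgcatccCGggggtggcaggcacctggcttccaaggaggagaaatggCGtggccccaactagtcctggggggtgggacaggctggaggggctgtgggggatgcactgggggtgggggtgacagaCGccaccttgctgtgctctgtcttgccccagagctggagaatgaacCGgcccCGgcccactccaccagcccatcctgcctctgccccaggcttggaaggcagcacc
RENO1 chain: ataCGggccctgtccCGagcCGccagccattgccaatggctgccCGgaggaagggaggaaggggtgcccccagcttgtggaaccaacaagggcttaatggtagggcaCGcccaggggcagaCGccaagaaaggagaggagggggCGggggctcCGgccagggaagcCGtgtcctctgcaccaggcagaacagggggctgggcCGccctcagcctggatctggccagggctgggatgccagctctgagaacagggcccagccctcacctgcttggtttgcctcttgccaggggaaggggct

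The 4 windows had a GC content of 66.7% at PIEZO1, 57.3% at UNC13D, 66.7% at CRTC1 and 67.3% beside RENO1. With 200 bp on either side of a summit, the quartiles were 60.1 and 66.3% over all members, and the median of lone peaks was 57.4%. The UNC13D window was thus low for a member. CpGs were scattered rather than packed. The windows held 11, 4, 8 and 10 of them in the same order, and the median over all 4288 member summits was 9 (quartiles 6 and 13) per 300 bp. The CpG observed to expected ratio, which compares the CpG count with that given by the C and G content, was 0.333, 0.162, 0.241 and 0.299. The central 32 bases of each window occur 1 time in the reference.

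Most chains were short. The median span was 4202.5 bp (interval of the median 4075 to 4368), with quartiles of 3261 and 5472 bp and a range of 1290 to 37219 bp. Chains of exactly 4 peaks numbered 375 (46.5%), those of 5 numbered 209 and those of 6 numbered 89. The 85 chains of 8 or more peaks (10.5%) held 873 peaks, and 9 chains had 14 or more. Peaks covered 30.3% of the spans in all, and the share in single chains ran from 12.3 to 76.1% with a median of 29.8%. The median gap between neighbours was 644 bp (quartiles 309 and 1166), and the median distance between neighbouring summits was 948 bp. At the edge of the rule, 88 gaps within 100 bp below the limit were inside chains and 54 gaps within 100 bp above it lay beside chains, and 1039 chains of exactly 3 peaks fell just outside.

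Overlap with genes was common among chains. Of the 806, 735 (91.2%, 89.0 to 93.1%) overlapped a protein-coding gene, and 501 (62.2%) had every summit inside a single gene. The other 71 overlapped no protein-coding gene, 23 of these overlapped a long non-coding RNA gene, and 41 chains overlapped no annotated gene of any kind. These counts take any overlap of the span and were not made for other peaks. By summit, 11.5% of members lay between genes, against 13.1% of peaks in chains of 2 or 3 and 17% of all peaks. Where a chain covered exactly 2 protein-coding genes (134 chains), the genes were arranged in tandem in 56, convergent in 54 and divergent in 24. Only 146 chains (18.1%) contained the 5' end of a protein-coding gene. In all, 763 of 19962 protein-coding genes had a chain over some of the body, a background of 3.82%. The share was 5.30% for genes of 10 to 50 kb, 4.15% below 10 kb, 2.21% for 50 to 100 kb and 1.48% for genes of 100 kb or more, so the genes with a chain were mostly not the long ones.

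The longest chain, by peaks and by span, was inside PIEZO1, the gene of a mechanosensitive cation channel of the plasma membrane. It ran from 88739415 to 88776633 on chromosome 16, a span of 37219 bp with 29 peaks, all within the gene, which is read from the minus strand and is 69883 bp long. No summit lay within 1 kb of a start site, which here and below is that of a transcript of a protein-coding gene. Of the 29 summits 25 were intronic and 4 lay in exons of non-coding genes that overlap PIEZO1. Pileups ran from 9 to 28 fragments and folds, the authors' ratio of pileup to local background, computed with 1 added to each, from 2.75 to 6.64 with a median of 4.14. The peak with the highest pileup was 636 bp wide and had 28 fragments over a background of 3.37. The recovered background was the lowest at the end of the chain toward the 5' end of the gene, at 1.89 to 2.05 fragments in the last 4 peaks against 3.66 in the first peak.

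The chain with the next highest number of peaks, 20, covered the 3' part of MYO15B, which codes for an unconventional myosin, and ran on into RECQL5, a DNA helicase of the RecQ family read from the opposite strand (chromosome 17, 75613744 to 75630622). Here 17 of 20 summits were within 1 kb of a start site, though the chain contains no gene's 5' end. Pileups were 13 to 23 fragments over a median background of 3.24, and folds reached 6.08. Peaks covered 39.3% of the 16879 bp. Nearby, a chain of 19 peaks covered most of UNC13D, which primes cytotoxic granules for release, and ran on into WBP2, a WW domain binding protein (chromosome 17, 75830131 to 75851520). Its widest peak, 1365 bp with a fold of 5.87 and a pileup of 21, lay near the 3' end of UNC13D. The background fell from 2.75 fragments at that peak to 2.27 at the last peak, and the lowest value was 1.79 in the peak before it.

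**Figure D1:**
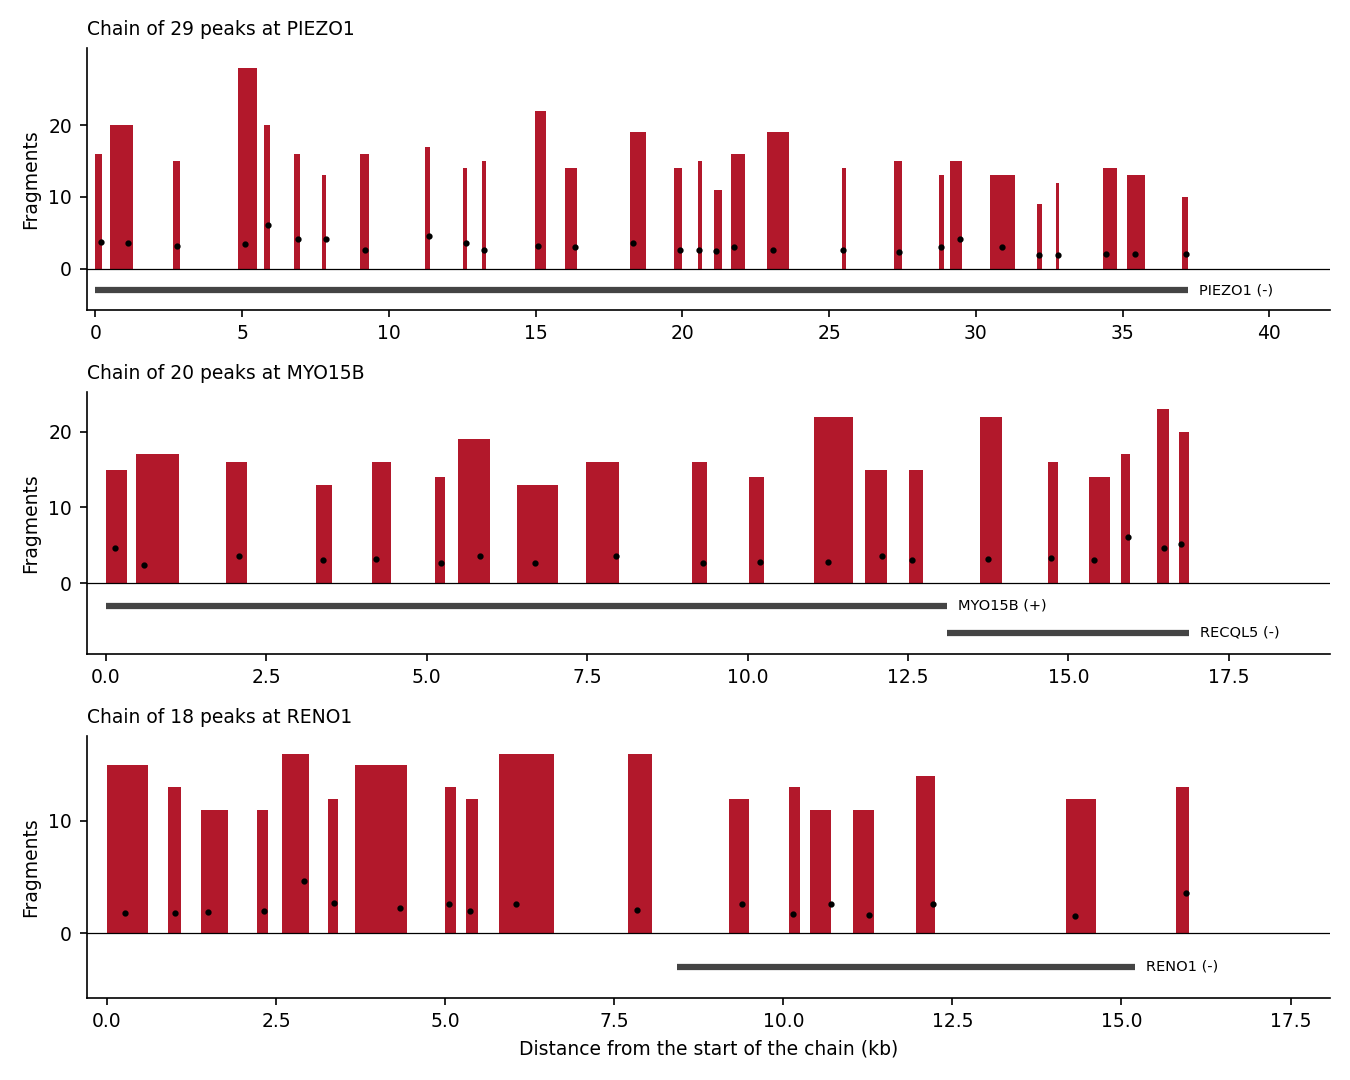
Peaks along the chains of 29 peaks at PIEZO1, 20 at MYO15B and RECQL5, and 18 at RENO1. Each red bar spans a peak and its height is the pileup at the summit in fragments, black dots are the recovered background in fragments, grey bars below are genes with their strand, and the x axis is the distance in kb from the start of the chain. The pileup bars stand above the background dots in every peak, and the RENO1 chain begins outside the gene.

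Among the other chains with most peaks, several covered gene-dense stretches near the end of chromosome 17. The chain of 17 peaks at ASPSCR1, a tether of glucose transporter vesicles, and CENPX, a small histone-fold protein, ran from 82005300 to 82022241. The chain of 16 peaks from 81919614 to 81936155 covered 3 genes, MAFG (a small MAF transcription factor), PYCR1 (an enzyme of proline synthesis) and SIRT7 (a nuclear deacylase). SECTM1, a secreted and transmembrane protein, had 15 peaks from 82321830 to 82336910, with folds up to 8.03. BAHCC1, a chromatin protein with a BAH domain, had 14 peaks from 81434989 to 81447773 that covered 46.5% of the chain. On chromosome 8, 19 peaks lay at EPPK1, which codes for the cytolinker epiplakin, 12 of them in intergenic sequence beside the gene, and 12 peaks lay within SCRIB, a regulator of cell polarity. Folds in the EPPK1 and SCRIB chains reached 5.02 and 4.14, below SECTM1.

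The chains with the largest share of their span under peaks were mostly on other chromosomes, with CDR2L on chromosome 17. The chain in CRTC1, a coactivator of CREB, held 4 intronic peaks in 1961 bp and was 76.1% covered, with pileups of 11, 11, 10 and 9 fragments and folds of 3.94, 3.37, 5.12 and 4.66. At BHLHA15, a transcription factor of secretory cells, 4 peaks covered 70.3% of 2386 bp, with folds up to 7.21. EHMT2, a methyltransferase of lysine 9 on histone H3, had 4 peaks over 66.5% of 1995 bp, and CDR2L had 4 over 64.2% of 1570 bp. DMPK, the kinase gene that carries the repeat of myotonic dystrophy, had 4 peaks over 64.0% of 1660 bp, all within 1 kb of a start site, with pileups of 14, 14, 13 and 15 fragments. These most covered chains had peaks of a pileup no higher than 19, below the maxima of 28 at PIEZO1 and 23 at MYO15B.

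The highest folds came from a different set. The chain on chromosome 1 from 144101402 to 144105332 overlapped no gene and its 5 peaks had, in order of position, folds of 5.65, 16.8, 11.3, 5.62 and 6.66, and their pileups were 22, 93, 120, 42 and 13 fragments. In that span 69.8% of 16-mers occur more than 1 time, the only chain above 50%, and 3 of its 5 central 32-mers occur elsewhere in the reference. How fragments from such copies were placed is not stated in the labels, and the part of the copies in these folds was not tested. After it came NPC2 and ISCA2, divergent genes of lysosomal cholesterol transport and iron-sulfur cluster assembly (chromosome 14, 74492404 to 74494935). Their 4 peaks had pileups of 6, 13, 10 and 9 and folds of 3.46, 8.20, 4.34 and 5.89, and all 4 summits lay within 1 kb of a start site. SECTM1 was next at 8.03, then GRIN1, a subunit of the NMDA receptor, at 8.02 with 4 peaks, and CRIP2 with CRIP1, neighbouring genes of LIM domain proteins, at 7.96 with 9 peaks. The NPC2 chain had a median background of 0.865 fragments, against 3.07 in the SECTM1 chain, and the lowest of any peak was 0.697.

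Some chains had no protein-coding gene. The RENO1 chain (chromosome 17, 81330760 to 81346759) held 18 peaks in 16000 bp, with pileups of 11 to 16 and folds of 3.03 to 5.69. Of its summits 6 lay in exons of RENO1 and 12 were intergenic, and the nearest protein-coding start, that of SLC38A10, was 35483 bp away. The other 4 with most peaks were at LINC02846 (chromosome 9, 9 peaks, fold up to 7.36), LINC03048 and LINC00482 (chromosome 17, 9 peaks each) and MIRLET7BHG, the host gene of let-7 microRNAs (chromosome 22, 8 peaks). Over all chains, 20 contained a microRNA gene.

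A few genes carried many separate chains. GSE1, which codes for a component of chromatin complexes with the demethylase LSD1, led 9 chains with 42 member peaks among 131 summits in its body of 506680 bp. Its chains had 4 to 6 peaks each and pileups of 10 to 19 fragments, so the gene held many short rows and no long one. ZC3H3, a zinc finger protein of mRNA processing, led 5 chains with 40 peaks on chromosome 8, and BAHCC1 led 5 with 37. BAIAP2, an adaptor of the actin cytoskeleton, led 5 with 35, and SEPTIN9, a cytoskeletal GTPase, led 5 with 29. In ZC3H3 36 of 44 summits within the gene belonged to chains, in BAIAP2 38 of 47 and in BAHCC1 34 of 45, whereas in SEPTIN9 28 of 67 did and in GSE1 42 of 131. FBRSL1 led 4 chains with 18 peaks, CACNA1G, a T-type calcium channel, 4 with 16, and MYO15B 3 with 33. In all 623 genes led a chain, 75 led 2 or more and 21 led 3 or more. A leading gene need not hold many of the summits. ABHD16B led a chain of 9 peaks with 1 summit in its body, and NTN3 led 4 peaks with 0.

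Within genes, the members were spread along the body. With each leading gene divided into 10 equal parts from the 5' to the 3' end, 10.9% of 3377 member summits lay in the first part and 13.3% in the last, with 6.49% in the fifth as the lowest. Of 21560 other summits in protein-coding genes, 20.6% lay in the first and 11.2% in the last. Members and other summits were not matched on gene length. A chain, with a median span of 4202.5 bp, takes up several parts of a short gene, and 212 genes with a chain were under 10 kb. The spread of members along genes is thus partly set by the rule. Start sites were compared as well. Of all member summits 36.7% (35.2 to 38.1%) lay within 1 kb of the start site of a protein-coding gene's transcript, close to the 36.4% in chains of 2 or 3 peaks and above the 25.8% of lone peaks. Of those promoter summits, however, 23% (21 to 25.2%) were within 1 kb of a gene's 5' end, against 38% in chains of 2 or 3 and 45.1% among lone peaks. Thus 8.44% of members were near the 5' end of a gene, against 11.9% of all peaks.

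**Figure D2:**
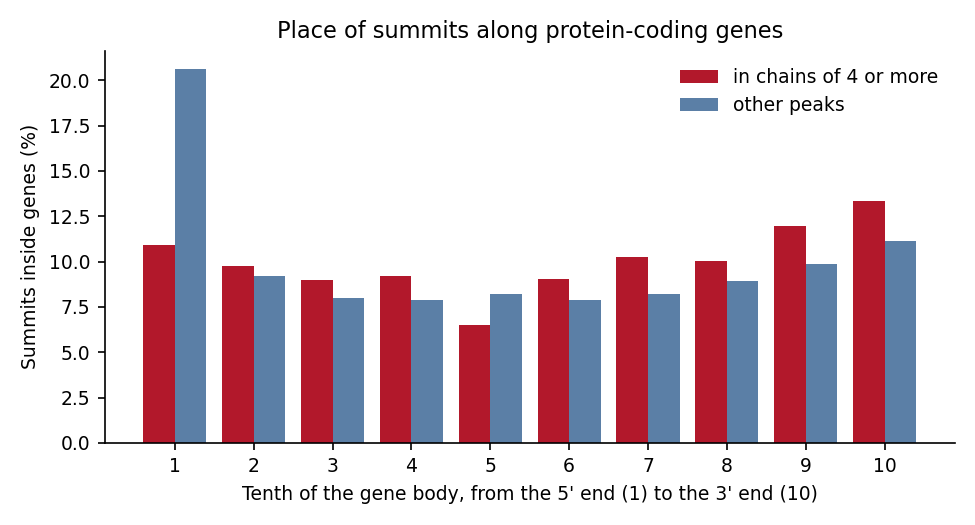
Place of summits along protein-coding genes, as the percent of summits inside genes that fall in each of 10 equal parts of the gene body from the 5' end (1) to the 3' end (10). Red bars are 3377 member summits in their leading gene and blue bars are 21560 other summits; the first part holds 10.9% of the former and 20.6% of the latter.

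Member summits in introns made up 36.7%, in 3' UTRs 6.95%, in coding sequence 5.55%, in exons of non-coding genes 2.26%, in 5' UTRs 0.326% and between genes 11.5%. Among lone peaks introns held 44%, 3' UTRs 3.74%, coding sequence 3.62% and intergenic sequence 20.3%. Chains of 2 or 3 peaks were nearer to the members, with 37.7%, 5.33%, 5.26% and 13.1% in the same order. Over all peaks the shares were 41.2%, 4.62%, 4.35% and 17%. Read the other way, chains took 19.4% of all peaks in 3' UTRs, 16.4% in coding sequence, 15.6% at promoters, 11.5% in introns and 8.70% between genes. These stand beside the 12.9% of all peaks that lay in chains. Most chains mixed classes: 541 (67.1%) had at least 1 promoter summit, 63 had promoter summits only, 94 had intron summits only and 43 had intergenic summits only.

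As to signal, members stood above lone peaks in pileup and width and close to them in fold. The median pileup was 12 fragments in the chains, 10 in chains of 2 or 3 and 9 in lone peaks. The median recovered background moved in the same order, 2.07, 1.56 and 1.23 fragments. It was at its lowest, under 0.70 fragments, in 0.653% of members, 3.29% of peaks in chains of 2 or 3 and 12.6% of lone peaks. The median fold, the ratio of pileup to background after 1 is added to each, was 4.13, 4.21 and 4.17. Members had a median width of 224 bp, against 195 and 175 bp. The count of members with a fold of 6 or more was 149, or 3.47%, beside a background of 3.51% of all peaks, so the share was near that of the list as a whole. The −log10 q reached 5 in 282 members (6.58%), beside 3.84% of all peaks. Width of 500 bp or more was found in 8.28% of members, 4.34% of peaks in chains of 2 or 3 and 2.06% of lone peaks, beside 3.53% of all peaks. Pileup of 20 or more was found in 2.92%, 0.623% and 0.166%, beside 0.654% of all peaks. Chains held 12.9% of all peaks. They held 57.3% of the 218 peaks with a pileup of 20 or more. Of the 1172 peaks with a fold of 6 or more they held 12.7%, near the share of all peaks. All of these measures come from the contrast that gave the positions, and they describe the members without a test.

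**Figure D3:**
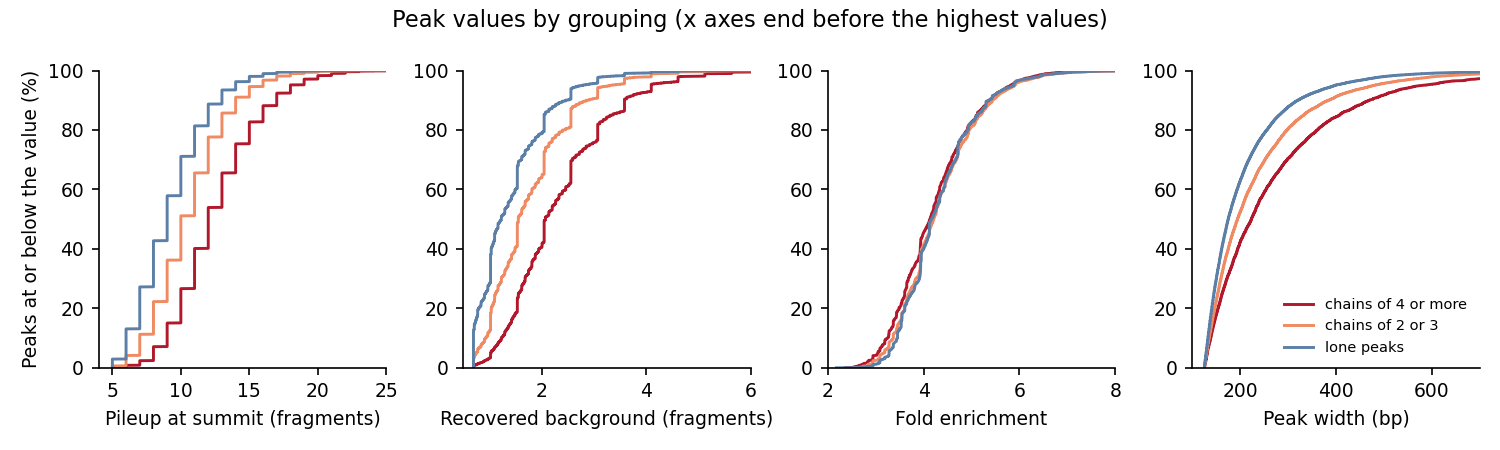
Cumulative distributions of pileup and recovered background (fragments), fold enrichment and peak width (bp), with the y axis giving the percent of peaks at or below each value. Red lines are 4288 peaks in chains of 4 or more, orange lines 9799 peaks in chains of 2 or 3 and blue lines 19262 lone peaks; the x axes stop short of the highest values. The pileup, background and width lines are shifted to the right in chains, with median pileups of 12, 10 and 9, and the fold lines lie close together at medians of 4.13, 4.21 and 4.17.

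The higher background moved with the chains and was also present among neighbours. Peaks of the 1-Mb windows that held a chain were pooled by kind. The median background there was 2.07 fragments for the 4288 members and 1.81 for 6209 peaks in chains of 2 or 3. It was 1.54 for 7581 lone peaks, and median pileups were 12, 11 and 10. Peaks were not matched window by window, so differences between windows remain in these medians. On all 21 chromosomes with a chain, background, pileup, width and GC content had higher medians in members than in lone peaks. The fold was higher on 13 of them and lower on 8. The background was higher in longer chains: the median background was 1.94 fragments in chains of 4, 2.05 in those of 5, 2.14 in those of 6 or 7, 2.56 in those of 8 to 11 and 3.07 in those of 12 or more. Over the same classes the median pileup went from 11 to 15 fragments, the median width from 214 to 264 bp and the median fold from 4.19 down to 3.89. The class of 12 or more held 16 chains. The 10 chains with most peaks all lay on chromosomes 8, 16 and 17, where median member backgrounds were 3.2, 2.48 and 2.72 fragments. Chain length and chromosome were not separated here. Outermost and inner peaks of a chain differed little, with median widths of 215 and 227 bp, backgrounds of 2.05 and 2.16 fragments and folds of 4.15 and 4.12. The part of the background in the number of peaks called was not tested.

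Base composition followed the chains down to their gaps. The median GC content was 64.4% under the peaks of a chain, 61.5% in the gaps between them and 58.2% in the 2 kb on either side. Peaks had a higher GC content than the gaps of their own chain in 666 of 806 chains (82.6%) and higher than the flanks in 730 (90.6%), and gaps were higher than flanks in 597 (74.1%). The CpG observed to expected ratio did not follow that order, with medians of 0.337, 0.352 and 0.355, and it was higher in peaks than in gaps in 324 chains (40.2%). At the summits the median GC content was 63.6% in members, 61.1% in chains of 2 or 3 and 57.4% in lone peaks. GC content affects how fragments are amplified and sequenced, and its part in the chains was not tested. Repeated sequence was scarce: the central 32-mer occurred more than 1 time for 1.31% of members, against 6.55% of lone peaks, and 46 chains had more than 10% of the 16-mers of their span repeated.

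**Figure D4:**
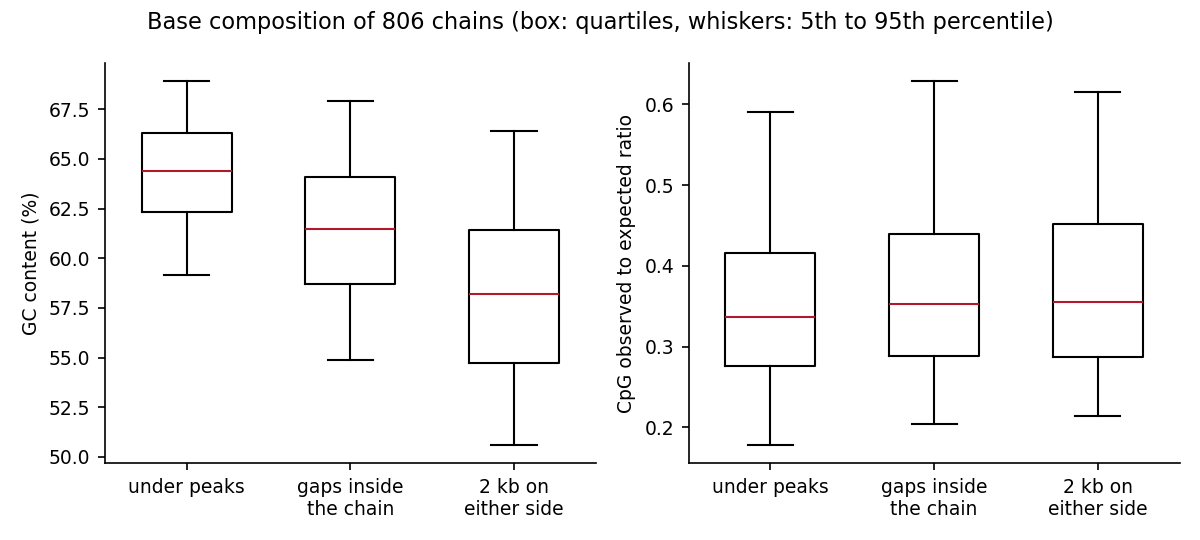
GC content (%) and CpG observed to expected ratio of the 806 chains, computed per chain under peaks, in the gaps inside the chain and in the 2 kb on either side. Boxes are quartiles with the median in red and whiskers reach the 5th and 95th percentiles; median GC content goes from 64.4 to 61.5 to 58.2%, and the median CpG ratios are 0.337, 0.352 and 0.355.

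Chains were unevenly spread over chromosomes and lay toward chromosome ends. Chromosome 17 had 147 chains with 23.5% of its peaks, chromosome 16 had 99 with 22.9%, chromosome 8 had 58 with 27.7%, chromosome 9 had 63 with 18.2% and chromosome 19 had 120 with 16.8%. By length, chromosome 19 was the densest at 2.05 chains per Mb and chromosome 17 followed at 1.77. At the other end, chromosomes 6 and 13 had 2 chains each, and chromosomes 18 and X had 0 members of 254 and 177 peaks, with exact upper limits of 1.44% and 2.06%. Those of chromosome 6 lay at TULP1 and TEAD3 and at EHMT2. The chain with most peaks on chromosome 13 lay at GAS6, a ligand of TAM receptors (6 peaks), and that on chromosome 21, which had 4 chains, lay in intergenic sequence (6 peaks from 43812646 to 43817667). Of all chains 443 (55%) lay within 5 Mb of a chromosome end, and so did 58.7% of members, 32.6% of peaks in chains of 2 or 3 and 20.1% of lone peaks, while such sequence makes up 7.59% of the reference.

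**Figure D5:**
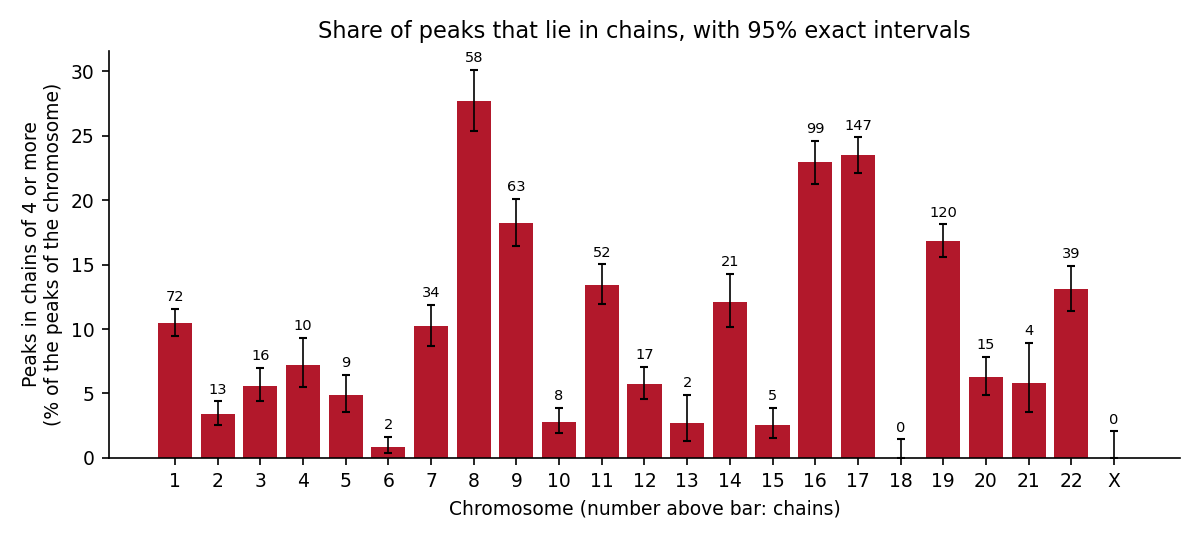
Percent of each chromosome's peaks that lie in chains of 4 or more, with 95% exact intervals for counting error and the number of chains above each bar. Chromosomes 8, 17 and 16 stand highest at 27.7, 23.5 and 22.9%, and chromosomes 18 and X are at 0.

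A handful of 1-Mb windows held much of the total. The window from 81 to 82 Mb of chromosome 17 had 40 chains with 276 of its 413 peaks (66.8%), and the window from 143 to 144 Mb of chromosome 8 had 27 chains with 195 of 307 (63.5%). Next were 75 to 76 Mb of chromosome 17 with 21 chains, 88 to 89 Mb of chromosome 16 with 18, 1 to 2 Mb of chromosome 19 with 22 and 136 to 137 Mb of chromosome 9 with 25. The 10 fullest windows held 32.3% of all members, and 225 of the 1958 windows with a peak had a chain. The median background at members was 3.2 fragments on chromosome 8, 2.72 on 17, 2.56 on 10 and 2.48 on 16, against 1.81 on chromosomes 1 and 19 and 1.85 on chromosome 9. Lone peaks had 1.53, 1.56, 1.25 and 1.54 on the former 4, and 1.15, 1.49 and 1.30 on chromosomes 1, 19 and 9. The value for chromosome 10 rests on 35 members in 8 chains. All of these medians are over whole chromosomes and do not separate their parts. Without chromosomes 8, 16 and 17, 502 chains with 2437 peaks were left and the median background of members was 1.81 fragments. The part of DNA copy number in the chains was not tested.

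By function, genes of 18 lists were counted as having a chain when any chain overlapped the gene body, beside 3.82% of all protein-coding genes. Plakins, large proteins that link cytoskeletal filaments to junctions, had a chain in 3 of 7 genes (42.9%, 9.90 to 81.6%): PLEC with 3 chains and 26 peaks, 23 of them in the gene, EPPK1 with 19 peaks, 7 in the gene, and EVPL with 5. All 3 lie on chromosomes 8 and 17, and without chromosomes 8, 16 and 17 the share was 0%. Septins had 2 of 13, SEPTIN9 and SEPTIN8. The actin and myosin list had 4 of 32, led by INF2, a formin, with 2 chains of 8 peaks and folds up to 6.04, then MYO18A, MYO9B and TNS2 with 4 peaks each. MYO15B, with 3 chains, was not on that list. Of the 26 listed laminins, collagens and agrin, COL7A1 alone had a chain, of 4 peaks. COL8A2, which was not listed, also led a chain of 4 peaks. The median gene length was 61.6 kb for plakins and 82.5 kb for the actin and myosin list, against 27.5 kb for all genes, so the shares are not set on equal lengths.

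In signalling, 6 of 25 genes of AMPK, LKB1 and mTOR signalling had a chain (24%, 9.36 to 45.1%). STK11, the tumour suppressor kinase LKB1, had the longest, with 11 peaks over 12269 bp that it shared with CBARP and pileups of 10 to 14. AKT1, a kinase upstream of mTOR, had 2 chains with 9 peaks, TSC2, an inhibitor of mTOR, 6 (shared with PKD1), MLST8, a subunit of the mTOR complexes, 5 (shared with BRICD5 and PGP), and CRTC1 and RPS6KB2 4 each. The Notch pathway had 4 of 24. There the receptor NOTCH1 had 10 peaks, all in the gene, with folds up to 5.90, the ligand JAG2 had 6 peaks over 61.7% of its chain with folds up to 7.42, and the glycosyltransferases RFNG and LFNG, which modify Notch, had 11 (shared with GPS1 and DUS1L) and 4, of which 1 summit lay in LFNG. The WNT pathway had 3 of 34, namely the secreted inhibitor NOTUM with 9 peaks, the ligand WNT7B with 8 and the coreceptor LRP5 with 4. That list is not complete: WNT11, which led a chain of 5 peaks, was not on it.

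Among chromatin genes, the corepressor and histone deacetylase list had 3 of 30, among them GSE1 and CBFA2T3, the latter with 3 chains and 17 peaks. Histone lysine methyltransferases and demethylases had 4 of 38, with 2 chains in the demethylase KDM4B and 1 in each of the methyltransferases SETD1B, EHMT2 and KMT2D. None of the 9 protein arginine methyltransferase genes, PRMT1 included, had a chain, with an exact upper limit of 33.6%. In metabolism, fatty acid and cholesterol synthesis had 2 of 22. FASN, the fatty acid synthase, had 2 chains with 17 peaks, 8 of them with a summit in the gene, and folds up to 5.69, and MVD, an enzyme of the mevalonate pathway, shared a chain of 10 peaks with CYBA. Both lie on chromosomes 16 and 17, and without chromosomes 8, 16 and 17 this share was also 0%. Glycolysis had 0 of 18 and cytosolic ribosomal proteins 0 of 26, with exact upper limits of 18.5% and 13.2%.

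Of cell type lists, intestinal epithelium, the tissue of origin, had 1 of 25, the junction protein gene TJP3, whose 5 peaks had pileups of 6 to 8. Neuronal and glial genes, a list of another tissue, had 3 of 25, with GRIN1, RBFOX3 and TUBB3. HOX genes had 0 of 39 and replication-dependent histone genes 0 of 68, with upper exact limits of 9.03% and 5.28%. ZNF genes had 5 of 508 (0.984%, 0.320 to 2.28%), with 20 peaks in the chains of ZNF469, 14 of them in the gene, and 4 to 6 in those of ZNF687, ZNF598, ZNF623 and ZNF646. The histone genes have a median length of 0.502 kb, and the ZNF genes, at 26.2 kb, are close to the length of all genes. These counts describe the lists and single nothing out, since the lists were chosen with results of these data known.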

How the data were processed

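A single peak list of H4R3me2a against input was used, from 1 library of each. The submitters' processing notes name Bowtie2, MACS2, deepTools and GRCh38 and state no versions, parameters or filters. Per the file headers, the deposited table gives for each peak the pileup as a count of fragments, not normalized, the fold enrichment as a ratio over the local background, and −log10 p and q values. All are the authors' values for single peaks. All 33353 peaks carried the same fold, p and q in the authors' interval list, and 4 mitochondrial peaks were left out.

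The background was recovered as (pileup + 1) / fold − 1, and a Poisson tail computed from it matched the authors' −log10 p to within 0.05 for every peak. Sequence came from GRCh38 and genes from GENCODE release 44. Each summit had 1 class. Promoters, within 1 kb of the start of any transcript that belongs to a protein-coding gene, took precedence, then 5' UTRs, 3' UTRs and coding sequence, then non-coding exons, introns and intergenic sequence. GC content used 200 bp on either side of a summit. A chain's leading gene is the protein-coding gene with more of its summits than any other, or at a tie the one with the longer overlap. Intervals of shares are exact (Clopper-Pearson), and those of medians use binomial ranks, at 95%. The scripts used Python 3.11.15, pandas 2.3.3, scipy 1.17.1 and pysam 0.24.0 and were tested on simulated data.

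The members and the 18 gene lists, 15 by hand and 3 by symbol, were chosen with earlier results of these data known. Named genes lead the 10 chains with most peaks, the 5 of longest span, the 5 most covered, the 5 with the highest folds, the 5 with most peaks and no protein-coding gene, and the chains with most peaks on the 3 chromosomes with fewest. Also named are the 8 genes leading most chains and up to 4 members of each list. Genes beyond these were named after their values were seen. Some items that the rules took are not reported here. Alternatives were other gaps, minimum sizes, peak sets, distances and promoter windows.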

Additional observations from a re-analysis of the deposited data

How the results depend on the processing

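The values below have no replicates, so an alternative counts as unchanged when it lies inside the 95% interval of the value reported or, for a count, within 1.5 times it. Of 124 alternatives for the main results, 52 did so and 72 did not. Intervals over peaks are likely too narrow, since they treat neighbouring peaks as independent, and these counts depend on that yardstick. The share of genes is pooled over the 354 genes of the hand-made lists, 10.2% as reported.

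With a largest gap of 1000 bp there were 374 chains with 1751 peaks, a median span of 2753.5 bp, 40.8% of summits at promoters, 75.4% of chains with all summits in 1 gene, a median GC content of 63.8%, a background of 2.23 fragments and 6.78% of list genes. With 3000 bp, 6666 peaks, a span of 5747 bp, 54.8% in 1 gene, 63.1% GC, a background of 2.05 and 15.8% of list genes. With 5000 bp, 1469 chains, 10006 peaks, 8818 bp, 34.9% at promoters, 45.9% in 1 gene, 62.6% GC, 2.05 fragments and 22% of list genes.

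A minimum of 3 peaks gave 1845 chains, 7405 peaks, 2935 bp, 88.8% over a protein-coding gene, 67.8% in 1 gene, 62.8% GC, 2.05 fragments and 21.2% of list genes. A minimum of 5 gave 431 chains, 2788 peaks, 5260 bp, 56.1% in 1 gene, 63.8% GC, 2.27 fragments and 5.93% of list genes.

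Stricter peak sets leave fewer peaks to chain. With a −log10 q of 5 or more, 1 chain of 5 peaks was left, the one on chromosome 1 with repeated sequence: 3931 bp, 0% at promoters, 0% over a gene, 0% in 1 gene, 66.1% GC, 4.61 fragments, 60% of its peaks with a fold of 6 or more and 0% of list genes. With a fold of 4 or more there were 198 chains, 905 peaks, 39.2% at promoters, 1.63 fragments, 8.51% with a fold of 6 or more and 3.11% of list genes. With the 50% of peaks of higher q there were 246 chains, 1185 peaks, 38.5% at promoters, 64.1% GC, 2.14 fragments, 6.08% with a fold of 6 or more and 4.80% of list genes.

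Chaining by summit distance moved the span to 3879 bp and the share in 1 gene to 66.6%, and merging peaks under 200 bp apart moved the span to 4486.5 bp. The promoter share was 23.2% within 500 bp, 65.5% within 3 kb and 8.44% for gene 5' ends alone, and GC content with a 500 bp flank was 62.6%. As additions chosen after seeing the data, peaks whose central 32-mer occurs 1 time left every value unchanged, and leaving out chromosomes 8, 16 and 17 gave 502 chains, 2437 peaks, 4047 bp, 1.81 fragments and 5.93% of list genes. For single lists, leaving out those chromosomes gave 0% for plakins and for fatty acid and cholesterol synthesis, 3.33% for corepressors (10% as reported), 4% for neuronal and glial genes (12%), 7.69% for septins (15.4%) and 16% for AMPK, LKB1 and mTOR signalling (24%). Pileups rest on few fragments: 26.6% of members had 10 or fewer. No paired analysis was possible because each group has 1 library.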

Other observations

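Some genes, chosen here after their values were seen, lay almost wholly inside chains. Among the 551 protein-coding genes of 10 kb or more with a chain, the median share of the body inside chains was 15%, 154 genes had over 25% and 35 had over 50%. SECTM1 had 93.8% of its 13051 bp inside a chain with all 12 of its summits, and UNC13D had 83.5% of 17561 bp. PCYT2, an enzyme of phosphatidylethanolamine synthesis, had 82.9% of 10475 bp with 8 summits. DGAT1, which makes triacylglycerol, had 81.6% of 12327 bp in 2 chains with 12 summits, and GIGYF1, a translational regulator, had 78.2% of 14744 bp with 8 summits. PIEZO1, whose chain had the most peaks, had 53.3% of its body inside it, and 13 of its 42 summits lay outside.

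Genes that led 3 chains, also named after their values were seen, included ITGB4, the integrin subunit of hemidesmosomes, with 21 member peaks among 25 summits, LLGL2, a regulator of cell polarity, with 12 of 22, and SBNO2 with 28 of 33. SBNO2 had chains of 11, 7 and 10 peaks with folds up to 6.23. In ITGB4 the chains of 9, 4 and 8 peaks had pileups of 11 to 22 fragments.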
